A study of Mus musculus with 9 samples.

Results

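Transcript levels of the Wnt signalling genes were measured in dermal cells of newborn mice sorted by CD49f, the integrin α6 subunit. Members were chosen by gene symbol: the Wnt, Fzd (Frizzled), Sfrp, Dkk and Rspo families, Lgr4 to Lgr6, Kremen1, Kremen2, Nkd1, Nkd2, Lrp5, Lrp6, and Notum, Wif1, Lef1, Tcf7, Tcf7l1, Tcf7l2, Axin2, Apcdd1, Rnf43, Znrf3 and Porcn. The rule uses symbols and no measured value, although it was written with earlier results of these data known. It gave 60 members among the 84809 gene rows of the deposited table. Of the 60, 46 reached the filter of at least 1 FPKM (fragments per kilobase of transcript, scaled to the mapped fragments) in at least 3 libraries and were tested. The 14 others were too low in too many libraries. None of the 46 reached 1 FPKM in libraries of 1 gate only, and 33 reached it in all 9 libraries.

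The 3 groups were the CD49f-neg, CD49f-low and CD49f-high gates, with 3 libraries each (replicates 1 to 3), all from primary cells isolated from the dermis and lysed without culture. Mice of all 3 groups carried Krt14 cre, a Cre recombinase under the promoter of a basal keratinocyte keratin, and Rosa26-mTmG, a membrane-bound fluorescent reporter switched from red to green by Cre. The labels name the gated cells mesenchymal and do not state a further sort on the reporter. They do not say how many mice a library holds or whether replicates are separate mice, so p-values measure the spread between these libraries, which may be technical.

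Wnt proteins are lipid-modified signals that cells release with the help of the acyltransferase Porcn and the carrier Wls. They bind Frizzled receptors and the co-receptors Lrp5 and Lrp6, which stabilises β-catenin, and β-catenin then acts with the Lef and Tcf factors on target genes, several of which feed back as inhibitors. In skin this pathway is known for its role in dermal fibroblast fate and in the dermal condensate and papilla, which signal to the growing hair.

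Itga6, the transcript of the sorted antigen, stood at 0.283 to 0.710 FPKM in CD49f-neg, against 4.38 to 6.09 in CD49f-low and 15.9 to 24.1 in CD49f-high. Relative depth, read from the steps between the lowest FPKM of single-exon genes, was 0.942 to 1.08 of CD49f-neg replicate 1. The summed FPKM of 10 fibroblast markers was 14088 to 17144 in CD49f-neg, against 5727 to 6979 in CD49f-low and 4128 to 6150 in CD49f-high. Markers of other cells moved with the gates. The 10 melanocyte markers summed to 6.22 to 6.40, 474 to 583 and 32.9 to 75.8 FPKM, and the 10 pericyte and smooth muscle markers to 30.6 to 43.3, 85.3 to 158 and 748 to 1388. For the 10 Schwann cell markers the sums were 4.52 to 7.20, 44.6 to 57.6 and 49.1 to 255, and CD49f-high replicate 1 had the lowest of the last 3 (49.1 against 214 and 255). The 11 dermal papilla and condensate markers summed to 61.2 to 83.2, 186 to 243 and 46.4 to 63.7 FPKM. Of these 11, limma called 9 higher in CD49f-low than in CD49f-neg (12.8% of all rows tested). It called 11 lower in CD49f-high than in CD49f-low (10.5% of all rows). Between CD49f-high and CD49f-neg 5 of them were called higher and 3 lower (13.9% and 8.27% of all rows). The 10 keratinocyte markers summed to 3.89 to 4.66, 11.7 to 20.9 and 30.3 to 66.3 FPKM, the 10 endothelial markers to 3.29 to 5.19, 9.16 to 10.9 and 15.3 to 35.4, and the 8 skeletal muscle markers to 1.74 to 2.76, 15.5 to 23.7 and 29.9 to 58.2, with Myod1 and Myf5 at 0 in CD49f-neg. The 7 chondrocyte markers summed to 3.30 to 4.67, 11.4 to 17.5 and 16.8 to 23.5 FPKM, with Matn1 at 0 in CD49f-neg and CD49f-low. The 8 immune markers summed to at most 4.27, with Cd52 at 0 in CD49f-neg. Sox10 is in both the melanocyte and the Schwann cell list. Des is in both the pericyte and smooth muscle list and the skeletal muscle list. No Schwann, mural, melanocyte or papilla marker was at 0 in all libraries of a gate. In bulk samples, fewer cells of a type and less RNA per cell cannot be told apart.

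Many Wnt members were highest in CD49f-low, and many were lowest in CD49f-high. Between CD49f-low and CD49f-neg, limma called 13 of the 46 tested members higher and 2 lower at an adjusted p under 0.05, against 12.8% and 2.62% of all 20523 rows tested. Between CD49f-high and CD49f-neg, 7 members were called higher and 14 lower, against 13.9% and 8.27% of all rows. Between CD49f-high and CD49f-low, 5 were called higher and 22 lower, against 5.93% and 10.5% of all rows. The last direction held 47.8% of the tested members. Without overlap between libraries, 18 members were higher and 5 lower in CD49f-low than in CD49f-neg, where all rows gave 34.8% and 5.77%. Likewise 9 were higher and 18 lower from negative to high (22.5% and 13.9% of all rows), and 6 higher and 25 lower from low to high (10.3% and 27.0%).

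Together, 29 members were called in at least 1 of the 3 comparisons and 17 in none, and the F test over the 3 gates called 29, against 28.5% of all rows. Called above both other gates in CD49f-low were 11 members (Wnt5a, Wnt10a, Wnt16, Fzd10, Rspo1, Rspo3, Dkk1, Dkk2, Notum, Lef1 and Nkd2), which is 23.9% of those tested against 4.0% of all rows. For 3 of them the call from negative to low often ended. It was lost in 15 of 18 alternatives for Dkk1, 13 of 17 for Wnt10a and 10 of 17 for Rspo3. Median-of-ratios scaling was among these for each. Called below both other gates in CD49f-high were 14 members, 30.4% against 4.3% of all rows. Called above both other gates in CD49f-high were Fzd4, Fzd7 and Sfrp1 (5.42% of all rows had this pattern), and 2 members fell at both steps, Lgr5 and Sfrp2 (0.507% of all rows). The median log2 change of the tested members was 0.22 from negative to low, beside 0.21 for all rows, -0.14 from negative to high, beside 0.07, and -0.55 from low to high, beside -0.15.

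The 3 comparisons share libraries and are not independent. The shift of all rows from negative to low was 0.21 log2 units in the FPKM as deposited and 0.01 after median-of-ratios scaling, which also changed the calls over all rows from 2623 higher and 537 lower to 1117 and 1093. None of the 63 calls of single members changed direction in any alternative tried. The count of members called higher from negative to high rested on CD49f-high replicate 1. Without it 14 members were called higher, which were those 7 and Wnt2b, Wnt6, Fzd1, Fzd3, Fzd8, Sfrp5 and Dkk2. The 5 members higher in CD49f-high than in CD49f-low became 3 without CD49f-high replicate 2 or CD49f-low replicate 2, 2 without CD49f-low replicate 1 or 3, and 1 without CD49f-high replicate 3. The 3 above both other gates in CD49f-high became 7 without CD49f-high replicate 1, but only 1 on leaving out CD49f-high replicate 3 or CD49f-low replicate 1. The 2 members lower in CD49f-low than in CD49f-neg became 4 without CD49f-high replicate 1. With the replicate number as a block, 17 and 4 members were called from negative to low, 11 and 16 from negative to high, and 7 and 25 from low to high, and every member called without the block was among them.

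**Figure D1:**
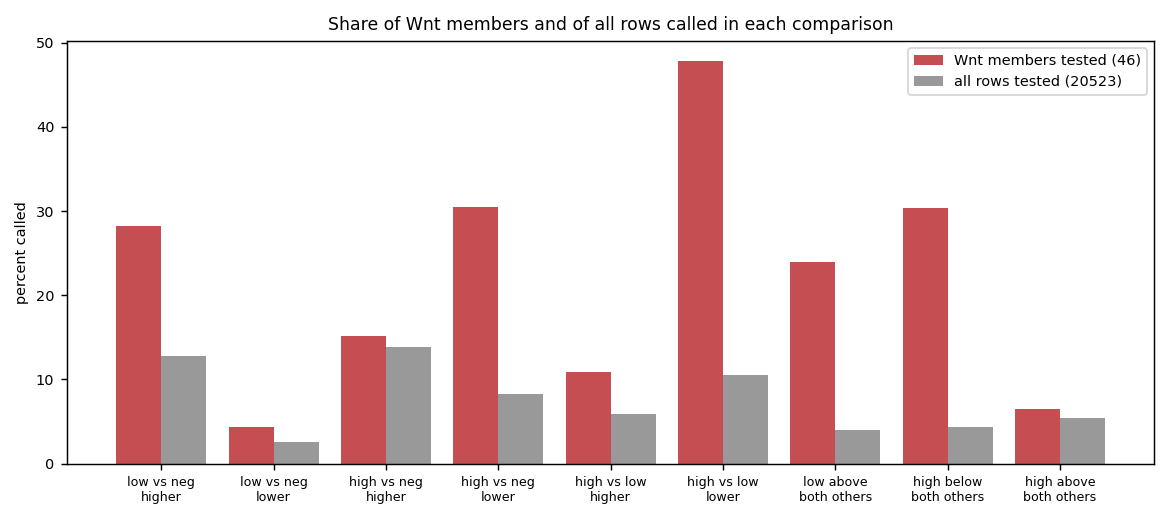
Percent of the 46 tested Wnt members (red) and of all 20523 tested rows (grey) called by limma at an adjusted p under 0.05, for each comparison and direction and for 3 patterns over the gates. The widest gap is for members lower in CD49f-high than in CD49f-low, 47.8% against 10.5%.

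**Figure D2:**
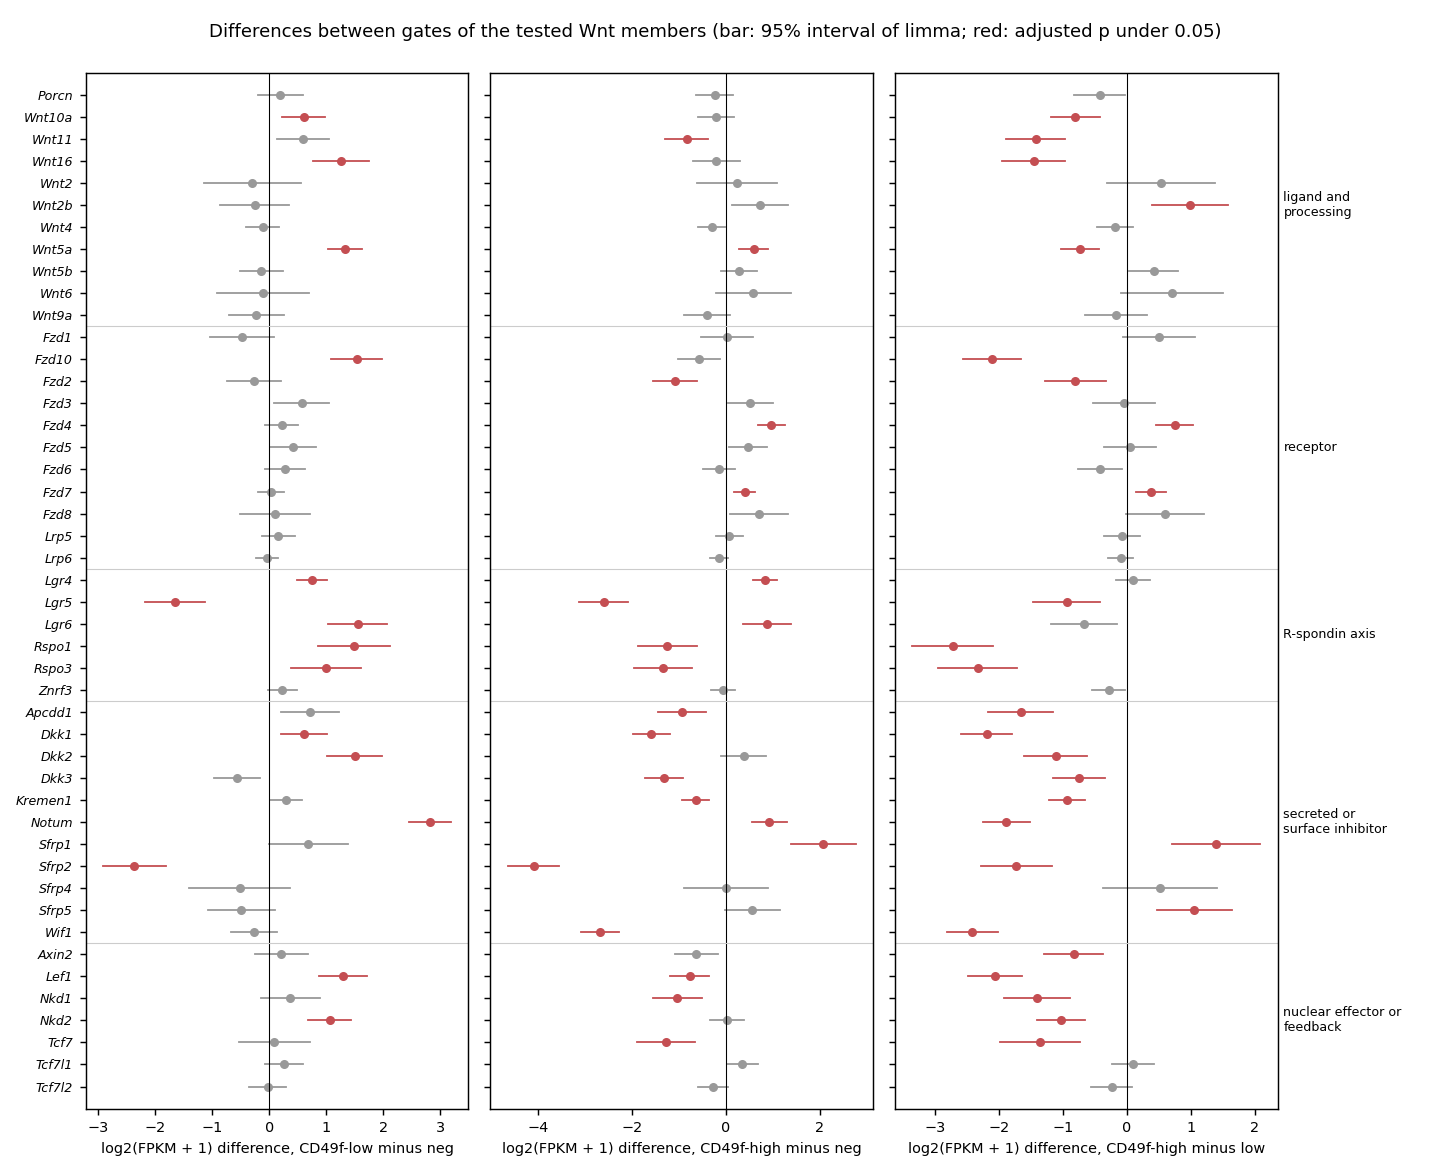
Difference between gates on the log2(FPKM + 1) scale (x axis) for each tested member (y axis, grouped by role), with limma's 95% interval and called members in red. In the right panel 22 of 27 called members lie left of 0.

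Of the ligands, Wnt5a, which mostly signals outside the β-catenin branch, was the most abundant in CD49f-low. Its row (chromosome 14, 28504750 to 28527447 of GRCm38) read 5.44, 6.27 and 6.01 FPKM in the 3 CD49f-neg libraries, 13.5, 17.1 and 18.8 in CD49f-low and 9.19, 8.67 and 10.4 in CD49f-high. The gates did not overlap, with CD49f-low highest and CD49f-neg lowest. Wnt5a rose by 1.33 log2 units from negative to low (SE 0.13, adjusted p = 0.000207, limma) and fell by 0.73 from low to high (SE 0.13, adjusted p = 0.00503), so that CD49f-high stayed 0.59 above CD49f-neg (SE 0.13, adjusted p = 0.011). All 3 calls were kept in every alternative. Adjusted p-values here are from limma, as are the values in brackets after an alternative. The row also covers a locus without a symbol, and how much of the value belongs to that locus cannot be told apart. The same holds for 16 member rows in all, some with 2 or 3 such loci. Among them are the rows of Rspo1, Rspo3, Lgr4, Lgr6, Nkd1, Nkd2, Fzd4 and Kremen1.

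Wnt11, another ligand known mainly for β-catenin-independent signalling (chromosome 7, 98835112 to 98855195), stood at 8.14, 6.400 and 4.93 FPKM in the 3 CD49f-neg libraries, 12.3, 10.02 and 8.39 in CD49f-low and 3.42, 3.83 and 2.32 in CD49f-high. All CD49f-high libraries lay below all others, and the lowest CD49f-low library was just above the highest CD49f-neg one. It fell by 1.43 log2 units from low to high (SE 0.20, adjusted p = 0.00133) and by 0.83 from negative to high (SE 0.20, adjusted p = 0.0162). The second call ended on dropping replicate 1 of every gate (adjusted p = 0.0594) or on leaving out CD49f-high replicate 3 (0.0542). The difference of 0.59 from negative to low did not reach the threshold (adjusted p = 0.0784) and passed it under the replicate block (adjusted p = 0.00802) or on leaving out CD49f-neg replicate 1 (0.0462).

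Wnt16 and Wnt10a were low and had their highest values in CD49f-low. Wnt16, known from bone, where it restrains resorption, was at 1.35, 0.448 and 0.454 FPKM in the 3 CD49f-neg libraries, 3.91, 2.197 and 3.33 in CD49f-low and 0.595, 0.499 and 0.368 in CD49f-high. It rose by 1.26 log2 units from negative to low (SE 0.22, adjusted p = 0.00514) and fell by 1.46 from low to high (SE 0.22, adjusted p = 0.00185). Every CD49f-low library of Wnt16 lay above all 6 others. Wnt10a, a β-catenin ligand of hair and tooth development, was at 1.16, 1.24 and 0.877 FPKM in the 3 CD49f-neg libraries, 2.93, 1.85 and 1.84 in CD49f-low and 0.535, 1.03 and 0.888 in CD49f-high. It fell by 0.81 log2 units from low to high (SE 0.17, adjusted p = 0.0103). It was no longer called on dropping replicate 1 of every gate (adjusted p = 0.0523). Its rise of 0.60 from negative to low (SE 0.17, adjusted p = 0.0424) rested on the setting, since the call ended in 13 of 17 alternatives (adjusted p = 0.0504 to 0.215), which were median-of-ratios scaling, no filter, the pseudocount of 0.1, quantile scaling, dropping replicate 1 of every gate and leaving out CD49f-high replicate 2 or 3, CD49f-low replicate 1, 2 or 3 and CD49f-neg replicate 1, 2 or 3.

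Wnt2b and Wnt6 had their highest means in CD49f-high, but with unequal libraries. Wnt2b, a β-catenin ligand, was at 2.74, 1.63 and 0.881 FPKM in the 3 CD49f-neg libraries, 1.05, 1.62 and 1.03 in CD49f-low and 2.23, 3.89 and 4.37 in CD49f-high. From low to high it rose by 0.99 log2 units (SE 0.27, adjusted p = 0.0331). The call was lost with no filter (adjusted p = 0.084), on leaving out CD49f-high replicate 2 (0.0952), CD49f-high replicate 3 (0.114), CD49f-low replicate 1 (0.0978), CD49f-low replicate 3 (0.11) or CD49f-neg replicate 2 (0.0539). From negative to high its difference was 0.73 (adjusted p = 0.0822), and this passed on dropping replicate 1 of every gate (adjusted p = 0.00983), on leaving out CD49f-high replicate 1 (0.0368) or CD49f-neg replicate 1 (0.0224). Wnt6 was at 2.82, 5.33 and 4.12 FPKM in the 3 CD49f-neg libraries, 3.95, 3.700 and 3.21 in CD49f-low and 2.86, 8.94 and 10.02 in CD49f-high and was called in no comparison. On leaving out CD49f-high replicate 1, Wnt6 was called higher in CD49f-high than in both other gates. The same held on dropping replicate 1 of every gate. In CD49f-high, replicate 1 of Wnt6 lay far below replicates 2 and 3. This library was also the lowest of its gate in the Schwann cell sum. The same held for melanocyte markers (32.9 against 75.6 and 75.8 FPKM) and fibroblast markers (4128 against 6150 and 6025). It was the highest in, among others, the pericyte and smooth muscle markers (1388 against 748 and 950). The part of any of these in the Wnt6 values was not tested.

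The ligands Wnt2, Wnt4, Wnt5b and Wnt9a and the enzyme Porcn were tested and called in no comparison, with values from 0.656 to 5.41 FPKM. With the replicate block, Wnt5b rose from low to high (difference 0.42, adjusted p = 0.0452), Wnt9a fell from negative to high (-0.40, 0.0243) and Porcn fell from low to high (-0.43, 0.0181). The ligands Wnt1, Wnt3, Wnt3a, Wnt7a, Wnt7b, Wnt8a, Wnt9b and Wnt10b did not reach the filter. Of these, Wnt10b reached 1.36 FPKM in 1 library and the other 7 stayed at or below 0.738 in every library, among them Wnt3a (at most 0.0275) and Wnt9b (at most 0.0355).

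Some ligand genes lie side by side. Wnt6 and Wnt10a are 6.19 kilobases apart on chromosome 1 and had their highest means in different gates, Wnt6 in CD49f-high and Wnt10a in CD49f-low. Wnt3a and Wnt9a, 16.2 kilobases apart on chromosome 11, differed in level, with Wnt9a at 1.82 to 4.13 FPKM. The pairs Wnt9b with Wnt3 and Wnt10b with Wnt1 were below the filter on both sides.

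Among the Frizzled receptors, which carry the Wnt binding site, the most abundant gene changed with the gate. Fzd2 (chromosome 11, 102604396 to 102608058) was at 27.5, 40.7 and 38.5 FPKM in the 3 CD49f-neg libraries, 24.4, 30.2 and 32.5 in CD49f-low and 11.7, 19.2 and 18.3 in CD49f-high. It fell by 1.08 log2 units from negative to high (SE 0.21, adjusted p = 0.0051), with no overlap. From low to high it fell by 0.81 (SE 0.21, adjusted p = 0.0283). This call ended when scaled by median-of-ratios (adjusted p = 0.0917), with no filter (0.0799), on leaving out CD49f-high replicate 1 (0.0609), CD49f-low replicate 2 (0.0847) or CD49f-low replicate 3 (0.105). Fzd2 gave 34.7% of the Frizzled FPKM in CD49f-neg and 28.5% in CD49f-low, where it ranked first, while in CD49f-high Fzd1 had the highest mean share, 27.2% (19.7% to 31.0% over the libraries), beside 18.5% to 27.8% for Fzd4. In CD49f-high replicate 1 both Fzd4 and Fzd7 were above Fzd1.

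Fzd4, also the receptor for the vascular ligand norrin (chromosome 7, 89404355 to 89413134), went the other way. It was at 11.7, 12.95 and 9.62 FPKM in the 3 CD49f-neg libraries, 12.2, 14.8 and 13.3 in CD49f-low and 23.7, 21.2 and 24.6 in CD49f-high, with every CD49f-high library above all 6 others. It rose by 0.97 log2 units from negative to high (SE 0.13, adjusted p = 0.000574) and by 0.75 from low to high (SE 0.13, adjusted p = 0.00372), and both calls held in every alternative. Fzd7 followed with a smaller difference, at 14.4, 15.2 and 12.9 FPKM in the 3 CD49f-neg libraries, 14.9, 14.8 and 13.8 in CD49f-low and 19.4, 17.5 and 20.2 in CD49f-high. It was higher in CD49f-high by 0.40 log2 units against CD49f-neg (SE 0.10, adjusted p = 0.0201) and by 0.37 against CD49f-low (SE 0.10, adjusted p = 0.0351). The first of these ended in 7 of 18 alternatives (adjusted p = 0.0548 to 0.0829), which were the fit on 6 libraries, median-of-ratios scaling, no filter, quantile scaling, dropping replicate 1 of every gate and leaving out CD49f-high replicate 3 and CD49f-neg replicate 3. The second ended in 8 of 18 alternatives (adjusted p = 0.0519 to 0.13), which were the fit on 6 libraries, no filter, dropping replicate 1 of every gate and leaving out CD49f-high replicate 1 or 3 and CD49f-low replicate 1, 2 or 3. Markers of pericytes and smooth muscle were also highest in CD49f-high (10 of 10 called higher than in CD49f-neg, against 13.9% of all rows). Keratinocyte, endothelial and skeletal muscle sums were highest there too, and the Schwann cell sum in replicates 2 and 3. The skeletal muscle sum includes Des, a pericyte and smooth muscle marker as well, and 5 of its 8 markers were below 1 FPKM in every CD49f-high library. Between CD49f-high and CD49f-low, 2 of 6 tested endothelial markers were called higher and 1 lower (5.93% and 10.5% of all rows). Of 5 tested skeletal muscle markers, 1 was called higher and 4 lower. The part of any of these in the Fzd4 and Fzd7 differences was not tested.

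Fzd10 was called higher in CD49f-low than in both other gates. It was at 2.23, 3.02 and 3.14 FPKM in the 3 CD49f-neg libraries, 7.49, 11.1 and 11.8 in CD49f-low and 1.72, 1.97 and 1.02 in CD49f-high, with every CD49f-low library above all 6 others and every CD49f-high library below them. Fzd10 rose by 1.54 log2 units from negative to low (SE 0.20, adjusted p = 0.000957) and fell by 2.11 from low to high (SE 0.20, adjusted p = 0.00014). Between CD49f-high and CD49f-neg its difference of -0.57 did not reach the threshold (adjusted p = 0.0705) and passed it when scaled by median-of-ratios (adjusted p = 0.0396), when quantile-normalized (0.0354), under the replicate block (0.0484), on dropping replicate 1 of every gate (0.0386) or on leaving out CD49f-low replicate 1 (0.0446).

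Fzd1, Fzd3 and Fzd8 were not called, and CD49f-high replicate 1 was the lowest of its gate in each. Fzd1 was at 27.2, 29.2 and 26.6 FPKM in the 3 CD49f-neg libraries, 19.2, 21.3 and 18.4 in CD49f-low and 16.9, 35.5 and 36.9 in CD49f-high. Fzd3, a receptor of axon guidance and planar polarity, was at 3.13, 3.82 and 3.56 FPKM in the 3 CD49f-neg libraries, 5.303, 5.57 and 6.16 in CD49f-low and 3.42, 6.096 and 7.65 in CD49f-high. Fzd8 was at 3.37, 4.22 and 2.39 FPKM in the 3 CD49f-neg libraries, 2.98, 4.54 and 3.36 in CD49f-low and 3.51, 8.47 and 6.86 in CD49f-high. In all 3 genes CD49f-high overlapped at least 1 other gate. Fzd1 was called in all 3 comparisons on leaving out CD49f-high replicate 1, lower in CD49f-low than in CD49f-neg and higher in CD49f-high than in either. On dropping replicate 1 of every gate it was called lower from negative to low and higher from low to high. Fzd3 passed from negative to low when only the 6 libraries in question were fitted (adjusted p = 0.0164), under the replicate block (0.0399), on dropping replicate 1 of every gate (0.0451) or on leaving out CD49f-high replicate 1 (0.0143), and from negative to high under the replicate block (adjusted p = 0.0465), on dropping replicate 1 of every gate (0.0118) or on leaving out CD49f-high replicate 1 (0.0035). Fzd8 passed from negative to high under the replicate block (adjusted p = 0.0313), on dropping replicate 1 of every gate (0.0268) or on leaving out CD49f-high replicate 1 (0.0107). Fzd5 and Fzd6 stayed between 0.806 and 3.71 FPKM and were not called, and both passed with the block, Fzd5 higher in CD49f-low (0.41, adjusted p = 0.0485) and in CD49f-high (0.47, 0.0292) than in CD49f-neg and Fzd6 lower in CD49f-high than in CD49f-low (-0.42, 0.048). Fzd9 reached 1.10 FPKM at most and was not tested.

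The co-receptors Lrp5 and Lrp6 were called in no comparison. Lrp5 was at 7.93, 10.2 and 10.4 FPKM in the 3 CD49f-neg libraries, 9.68, 10.7 and 11.8 in CD49f-low and 9.401, 9.96 and 10.7 in CD49f-high. Lrp6 was at 12.8, 13.2 and 13.2 FPKM in the 3 CD49f-neg libraries, 12.2, 13.2 and 12.6 in CD49f-low and 11.99, 11.3 and 11.9 in CD49f-high. The gates overlapped in Lrp5, while the 3 CD49f-high libraries of Lrp6 lay below the 6 others. The F test of limma gave an adjusted p of 0.563 for Lrp5 and 0.397 for Lrp6. The 95% interval of the difference between CD49f-high and CD49f-low ran from -0.37 to 0.20 log2 units for Lrp5 and from -0.30 to 0.097 for Lrp6.

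R-spondins are secreted proteins that raise Wnt receptor levels by binding Lgr4, Lgr5 or Lgr6 and removing the receptor-degrading ubiquitin ligases Rnf43 and Znrf3. Rspo1 (chromosome 4, 124986430 to 125009099) was at 3.96, 5.79 and 6.57 FPKM in the 3 CD49f-neg libraries, 11.5, 18.2 and 22.1 in CD49f-low and 1.77, 2.57 and 0.921 in CD49f-high. No gate overlapped another, with CD49f-low highest and CD49f-high lowest. Rspo1 rose by 1.48 log2 units from negative to low (SE 0.28, adjusted p = 0.00778) and fell by 2.73 from low to high (SE 0.28, adjusted p = 0.000217), and the difference between CD49f-high and CD49f-neg was -1.25 (SE 0.28, adjusted p = 0.0107). These 3 calls held in every alternative.

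Rspo3 (chromosome 10, 29453109 to 29535867) showed the same order with more spread. It was at 4.32, 1.69 and 2.11 FPKM in the 3 CD49f-neg libraries, 7.74, 4.68 and 6.13 in CD49f-low and 0.741, 0.432 and 0.104 in CD49f-high. All 3 CD49f-high libraries were below 1 FPKM, and it fell by 2.34 log2 units from low to high (SE 0.28, adjusted p = 0.00044) and by 1.34 from negative to high (SE 0.28, adjusted p = 0.00674). Its rise of 1.00 from negative to low (SE 0.28, adjusted p = 0.0393) ended in 10 of 17 alternatives (adjusted p = 0.0529 to 0.126), which were median-of-ratios scaling, no filter, the pseudocount of 0.1, quantile scaling and leaving out CD49f-high replicate 2, CD49f-low replicate 1, 2 or 3 and CD49f-neg replicate 2 or 3. Rspo2 did not reach the filter, with 0.493, 1.84 and 1.73 FPKM in CD49f-low and at most 0.283 in the other gates, and Rspo4 stayed at or below 0.508. The summed FPKM of the 4 R-spondins was 7.88 to 9.14 in CD49f-neg, against 20.3 to 30.2 in CD49f-low and 1.15 to 3.37 in CD49f-high.

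The R-spondin receptors Lgr4, Lgr5 and Lgr6 together had 14.4 FPKM on average in CD49f-neg, then 12.2 in CD49f-low, then 8.86 in CD49f-high, and the leading gene was not the same. Lgr5, best known as a stem cell marker of hair follicle and gut (chromosome 10, 115450311 to 115587780), was at 7.11, 14.9 and 10.7 FPKM in the 3 CD49f-neg libraries, 2.01, 3.42 and 2.600 in CD49f-low and 0.758, 1.01 and 0.906 in CD49f-high. It fell by 1.66 log2 units from negative to low (SE 0.23, adjusted p = 0.00152) and by 2.60 from negative to high (SE 0.23, adjusted p = 5.28e-05), with no overlap between any gates. The step from low to high of -0.94 (SE 0.23, adjusted p = 0.022) ended with no filter (adjusted p = 0.0599), on leaving out CD49f-high replicate 1 (0.0578), CD49f-high replicate 3 (0.0603), CD49f-low replicate 2 (0.0802) or CD49f-low replicate 3 (0.0661). Lgr4, the widely expressed member (chromosome 2, 109917647 to 110014257), was at 3.24, 2.59 and 2.66 FPKM in the 3 CD49f-neg libraries, 4.98, 5.43 and 5.83 in CD49f-low and 6.08, 5.23 and 6.23 in CD49f-high. Its CD49f-neg libraries lay below all others, which overlapped. It was higher than in CD49f-neg by 0.75 log2 units in CD49f-low (SE 0.12, adjusted p = 0.00264) and by 0.84 in CD49f-high (SE 0.12, adjusted p = 0.000726).

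Lgr6, a marker of stem cells of the upper hair follicle, was at 0.441, 0.761 and 0.847 FPKM in the 3 CD49f-neg libraries, 2.62, 3.797 and 5.85 in CD49f-low and 1.84, 2.76 and 1.77 in CD49f-high. Its CD49f-neg libraries were again the lowest, with overlap between the other gates. It rose by 1.56 log2 units from negative to low (SE 0.23, adjusted p = 0.00202) and by 0.89 from negative to high (SE 0.23, adjusted p = 0.0212). The second call ended with no filter (adjusted p = 0.0581), on leaving out CD49f-high replicate 2 (0.0743), CD49f-neg replicate 1 (0.061) or CD49f-neg replicate 2 (0.0515). From low to high its difference was -0.67 (adjusted p = 0.0802), which passed under the replicate block (adjusted p = 0.0364) or on leaving out CD49f-low replicate 1 (0.0292). As a share of the summed FPKM of the 3 receptors, Lgr5 held 74.3% in CD49f-neg, then 22.1% in CD49f-low and 10.1% in CD49f-high, while Lgr4 held 21.0%, 45.2% and 66.0%. The highest single-library share of Lgr5 in CD49f-low (27.1%) was below its lowest in CD49f-neg (65.9%). Znrf3 stayed between 2.71 and 3.95 FPKM and was not called, and Rnf43 was below the filter (at most 0.258 FPKM).

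**Figure D3:**
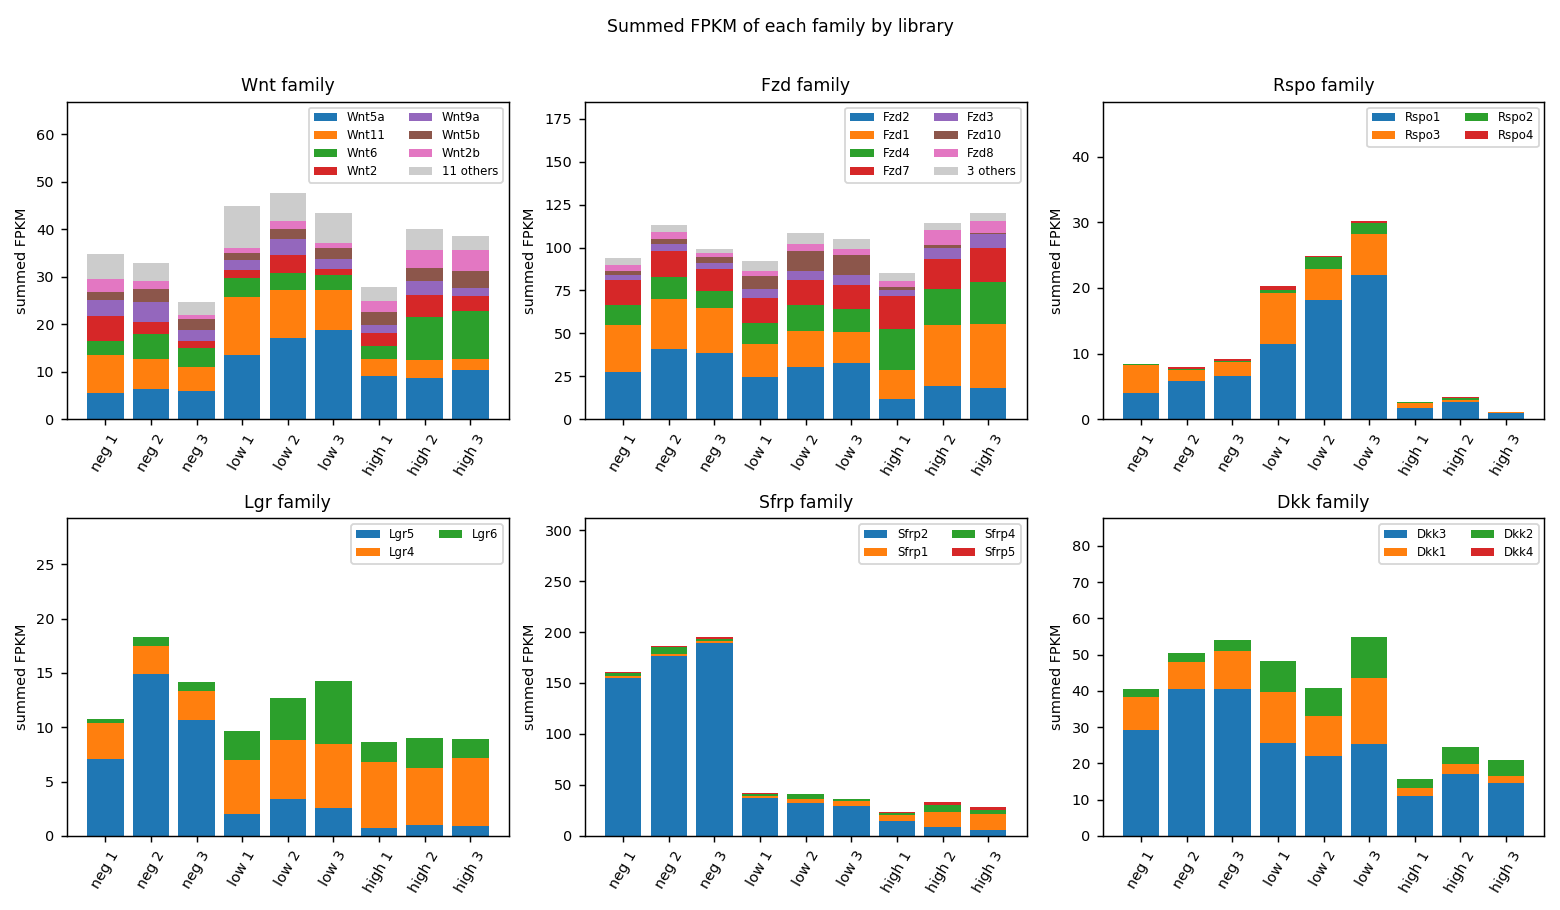
Summed FPKM (y axis) of 6 Wnt families in each of the 9 libraries (x axis, gate and replicate), stacked by gene with at most 7 genes named. The R-spondin sum is highest in the 3 CD49f-low libraries (20.3 to 30.2) and the Sfrp sum in the 3 CD49f-neg libraries (161 to 195).

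The secreted and surface inhibitors held the most abundant members, Sfrp2 and Apcdd1, and the largest difference among those tested. Sfrp2, a secreted Frizzled-related protein that binds Wnt and is abundant in dermal fibroblasts (chromosome 3, 83766321 to 83774316), was at 155, 177 and 189 FPKM in the 3 CD49f-neg libraries, 36.8, 32.4 and 29.5 in CD49f-low and 14.5, 8.55 and 6.04 in CD49f-high. No gate overlapped another. Sfrp2 fell by 2.36 log2 units from negative to low (SE 0.25, adjusted p = 0.00025) and by 1.73 from low to high (SE 0.25, adjusted p = 0.00127). From negative to high it fell by 4.10 (SE 0.25, adjusted p = 6.48e-06). It made up 96.2% of the Sfrp FPKM in CD49f-neg, then 83.1% in CD49f-low and 36.6% in CD49f-high. The fibroblast markers fell as well. Against CD49f-neg, 7 of 10 were called lower in CD49f-low (2.62% of all rows) and 9 of 10 in CD49f-high (8.27%). Their part in the fall of Sfrp2 was not tested.

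Sfrp1 (chromosome 8, 23411502 to 23449632) rose where Sfrp2 fell. It was at 1.77, 2.36 and 1.69 FPKM in the 3 CD49f-neg libraries, 2.78, 4.09 and 4.37 in CD49f-low and 5.95, 15.1 and 15.6 in CD49f-high, and CD49f-high replicate 1 was well below replicates 2 and 3. Sfrp1 rose by 2.07 log2 units from negative to high (SE 0.31, adjusted p = 0.00111) and by 1.39 from low to high (SE 0.31, adjusted p = 0.0134). The second call ended on leaving out CD49f-high replicate 3 (adjusted p = 0.0513) or CD49f-low replicate 1 (0.0529). The difference of 0.68 from negative to low did not reach the threshold (adjusted p = 0.157). Sfrp1 was called higher there on leaving out CD49f-high replicate 1 or on dropping replicate 1 of every gate. In CD49f-high it held 42.5% of the Sfrp FPKM on average (25.4% to 55.98% over the libraries), where Sfrp2 held 21.7% to 62.2%. Sfrp5 was low, at 0.701, 0.654 and 1.08 FPKM in the 3 CD49f-neg libraries, 0.454, 0.102 and 0.324 in CD49f-low and 0.6999, 2.06 and 2.66 in CD49f-high. From low to high it rose by 1.05 log2 units (SE 0.26, adjusted p = 0.0224). It was no longer called with no filter (adjusted p = 0.0573), on leaving out CD49f-high replicate 2 (0.0723), CD49f-high replicate 3 (0.0744), CD49f-low replicate 2 (0.078) or CD49f-low replicate 3 (0.0619). In Sfrp1 and Sfrp5, CD49f-high replicate 1 was low, as it was in the Schwann cell, melanocyte and fibroblast markers, whose part was not tested. Sfrp4 was between 1.59 and 7.03 FPKM, not called, and passed with the block, lower in CD49f-low than in CD49f-neg (-0.52, adjusted p = 0.0413) and higher in CD49f-high than in CD49f-low (0.52, 0.0427).

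Wif1, which binds Wnt proteins outside the cell (chromosome 10, 121033960 to 121100650), was at 55.1, 66.01 and 77.8 FPKM in the 3 CD49f-neg libraries, 48.3, 57.2 and 58.9 in CD49f-low and 7.68, 12.2 and 8.85 in CD49f-high. CD49f-neg and CD49f-low overlapped, and all CD49f-high libraries lay far below both. It fell by 2.42 log2 units from low to high (SE 0.18, adjusted p = 4.70e-05) and by 2.68 from negative to high (SE 0.18, adjusted p = 1.06e-05). Both calls held in every alternative.

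Notum, the deacylase that removes the lipid of Wnt proteins and is itself a Wnt target (chromosome 11, 120653788 to 120661175), was at 0.153, 0.218 and 0.194 FPKM in the 3 CD49f-neg libraries, 6.41, 7.84 and 7.96 in CD49f-low and 1.49, 1.66 and 0.7599 in CD49f-high. Each gate was apart from the others, with CD49f-neg near 0. It rose by 2.82 log2 units from negative to low (SE 0.16, adjusted p = 1.32e-05) and fell by 1.89 from low to high (SE 0.16, adjusted p = 8.95e-05), and CD49f-high stayed above CD49f-neg by 0.93 (SE 0.16, adjusted p = 0.00299). On the FPKM scale the ratio of the means of low to negative was 39.3, beyond what the log2(FPKM + 1) scale shows, since the added 1 shrinks differences between low values. Apcdd1, a membrane-bound inhibitor and Wnt target of skin, was at 88.3, 94.8 and 115 FPKM in the 3 CD49f-neg libraries, 225, 117 and 166 in CD49f-low and 59.5, 43.96 and 50.5 in CD49f-high. The gates did not overlap, although the lowest CD49f-low library was close to the highest CD49f-neg one. It fell by 1.66 log2 units from low to high (SE 0.23, adjusted p = 0.00103). From negative to high it fell by 0.94 (SE 0.23, adjusted p = 0.0154). The call was lost on leaving out CD49f-high replicate 2 (adjusted p = 0.0547) or CD49f-neg replicate 3 (0.0629). From negative to low its difference of 0.72 (adjusted p = 0.0609) passed under the replicate block (adjusted p = 0.0292) or on leaving out CD49f-low replicate 2 (0.0202).

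Of the Dickkopf proteins, Dkk1 and Dkk2 block Lrp5 and Lrp6, while Dkk3 does not act in this way. Dkk1 (chromosome 19, 30545863 to 30549665) was at 9.31, 7.54 and 10.2 FPKM in the 3 CD49f-neg libraries, 14.3, 11.1 and 18.02 in CD49f-low and 2.43, 2.62 and 1.96 in CD49f-high. Its CD49f-high libraries lay below all others, and it fell by 2.19 log2 units from low to high (SE 0.18, adjusted p = 6.55e-05) and by 1.58 from negative to high (SE 0.18, adjusted p = 0.000201). The rise of 0.61 from negative to low (SE 0.18, adjusted p = 0.0464) was at the threshold, and ended in 15 of 18 alternatives (adjusted p = 0.0505 to 0.301), which were the fit on 6 libraries, median-of-ratios scaling, no filter, no trend, the pseudocount of 0.1, quantile scaling, dropping replicate 1 of every gate and leaving out CD49f-high replicate 1, 2 or 3, CD49f-low replicate 1 or 3 and CD49f-neg replicate 1, 2 or 3. Dkk2 (chromosome 3, 132085292 to 132180304) was at 2.196, 2.48 and 3.105 FPKM in the 3 CD49f-neg libraries, 8.48, 7.83 and 11.3 in CD49f-low and 2.32, 4.77 and 4.25 in CD49f-high, with every CD49f-low library above the rest. It rose by 1.50 from negative to low (SE 0.22, adjusted p = 0.00185) and fell by 1.12 from low to high (SE 0.22, adjusted p = 0.00702).

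Dkk3 was the most abundant Dickkopf gene in all 3 gates, at 29.1, 40.4 and 40.7 FPKM in the 3 CD49f-neg libraries, 25.6, 21.9 and 25.4 in CD49f-low and 10.9, 17.1 and 14.7 in CD49f-high. It fell by 1.31 log2 units from negative to high (SE 0.18, adjusted p = 0.000688) with no overlap. The fall of 0.75 from low to high (SE 0.18, adjusted p = 0.0195) ended when scaled by median-of-ratios (adjusted p = 0.0735), with no filter (0.0586), on leaving out CD49f-low replicate 1 (0.0661) or CD49f-low replicate 3 (0.0713), and the difference of -0.56 from negative to low (adjusted p = 0.0633) passed when only the 6 libraries in question were fitted (adjusted p = 0.0408), when scaled by median-of-ratios (0.0187), under the replicate block (0.0328), on dropping replicate 1 of every gate (0.0141), on leaving out CD49f-high replicate 1 (0.0323) or CD49f-neg replicate 1 (0.0311). Kremen1, the transmembrane partner of Dickkopf proteins (chromosome 11, 5191552 to 5261558), was at 13.7, 14.5 and 14.5 FPKM in the 3 CD49f-neg libraries, 21.1, 15.1 and 17.4 in CD49f-low and 9.49, 8.41 and 8.39 in CD49f-high. The gates did not overlap, with CD49f-high lowest. It fell by 0.94 log2 units from low to high (SE 0.13, adjusted p = 0.000886) and by 0.64 from negative to high (SE 0.13, adjusted p = 0.00497). Kremen2 and Dkk4 were below the filter.

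**Figure D4:**
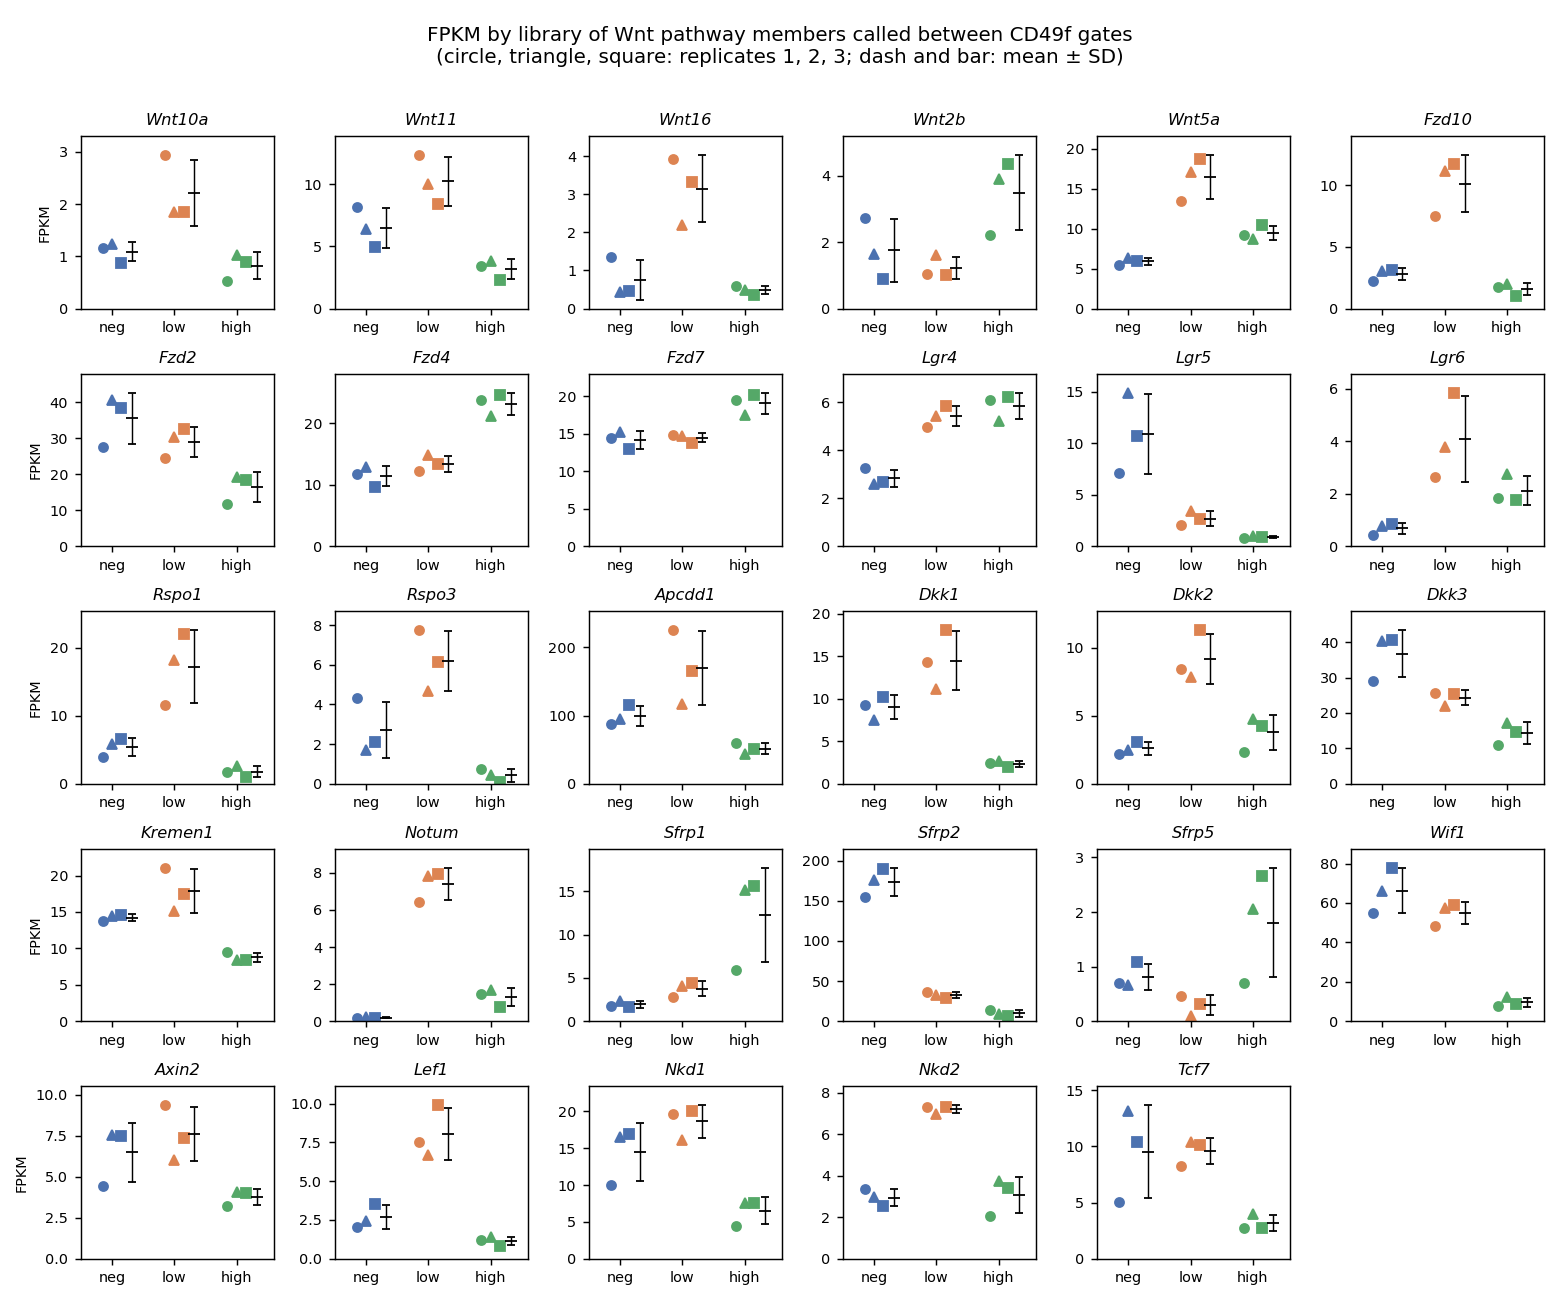
FPKM (y axis, linear and starting at 0) of the 29 members called in at least 1 comparison, by gate (x axis), with 1 symbol per replicate and the mean ± SD of the 3 libraries beside it. Notum, Rspo1, Lef1 and Fzd10 peak in CD49f-low, and Sfrp2 and Lgr5 step down from gate to gate.

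The nuclear factors and feedback genes that mark β-catenin signalling were lower in CD49f-high than in CD49f-low where they were called, 5 of 7 members, against 10.5% of all rows. One of the 5, Axin2, was not called in 6 of 18 alternatives. Lef1, the DNA-binding partner of β-catenin and itself a target (chromosome 3, 131110471 to 131224356), was at 2.06, 2.44 and 3.52 FPKM in the 3 CD49f-neg libraries, 7.51, 6.67 and 9.88 in CD49f-low and 1.205, 1.38 and 0.836 in CD49f-high. The gates did not overlap, with CD49f-low highest. Lef1 rose by 1.30 log2 units from negative to low (SE 0.19, adjusted p = 0.00176) and fell by 2.07 from low to high (SE 0.19, adjusted p = 0.000107). From negative to high it fell by 0.77 (SE 0.19, adjusted p = 0.0157). This call ended on leaving out CD49f-high replicate 3 (adjusted p = 0.0554) or CD49f-neg replicate 3 (0.0603). Tcf7, a related factor, was at 5.07, 13.2 and 10.4 FPKM in the 3 CD49f-neg libraries, 8.302, 10.4 and 10.2 in CD49f-low and 2.78, 3.97 and 2.72 in CD49f-high. CD49f-neg and CD49f-low overlapped, above CD49f-high. It fell by 1.36 from low to high (SE 0.28, adjusted p = 0.00867) and by 1.27 from negative to high (SE 0.28, adjusted p = 0.00887). Tcf7l1 and Tcf7l2, which also act as repressors when β-catenin is absent, stayed between 2.72 and 5.03 FPKM and were not called, and Tcf7l1 rose from negative to high with the block (0.36, adjusted p = 0.0253).

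Axin2, the scaffold of the β-catenin destruction complex and a widely used readout of Wnt signalling (chromosome 11, 108920349 to 108950783), was at 4.42, 7.56 and 7.51 FPKM in the 3 CD49f-neg libraries, 9.35, 6.05 and 7.39 in CD49f-low and 3.21, 4.098 and 4.01 in CD49f-high. CD49f-neg and CD49f-low overlapped, and CD49f-high lay below both. It fell by 0.84 log2 units from low to high (SE 0.20, adjusted p = 0.0214). It was no longer called when scaled by median-of-ratios (adjusted p = 0.0632), with no filter (0.0602), on leaving out CD49f-high replicate 1 (0.0606), CD49f-high replicate 3 (0.0503), CD49f-low replicate 1 (0.0779) or CD49f-low replicate 3 (0.0645). From negative to high its difference was -0.62 (adjusted p = 0.0566), and it passed when scaled by median-of-ratios (adjusted p = 0.036), when quantile-normalized (0.0278), on dropping replicate 1 of every gate (0.00768) or on leaving out CD49f-neg replicate 1 (0.00845).

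Nkd1 and Nkd2 encode Dishevelled-binding feedback inhibitors. Nkd1 (chromosome 8, 88521344 to 88594887) was at 9.98, 16.5 and 16.98 FPKM in the 3 CD49f-neg libraries, 19.7, 16.1 and 20.1 in CD49f-low and 4.43, 7.52 and 7.63 in CD49f-high. CD49f-high lay below the other gates, which overlapped. It fell by 1.41 log2 units from low to high (SE 0.23, adjusted p = 0.00291) and by 1.04 from negative to high (SE 0.23, adjusted p = 0.0104). Nkd2 (chromosome 13, 73818534 to 73847631) was at 3.36, 2.96 and 2.53 FPKM in the 3 CD49f-neg libraries, 7.33, 6.98 and 7.296 in CD49f-low and 2.08, 3.75 and 3.41 in CD49f-high. All its CD49f-low libraries lay above the other 6, which overlapped each other. Nkd2 rose by 1.06 from negative to low (SE 0.16, adjusted p = 0.00264) and fell by 1.03 from low to high (SE 0.16, adjusted p = 0.00249). Of the dermal papilla and condensate markers, 9 of 11 were higher in CD49f-low than in CD49f-neg (12.8% of all rows). From low to high 11 of 11 were lower (10.5% of all rows). These are the directions of Lef1, Nkd2, Notum, Rspo1 and Dkk2. Melanocyte markers had these directions too, with 10 of 10 higher from negative to low, 8 of 10 lower from low to high and the sums given above (474 to 583 FPKM in CD49f-low). The part of either list in these differences was not tested.

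The promoters of the members were searched for the core letters bound by Lef and Tcf factors, CTTTGAA or CTTTGAT or CTTTGTA or CTTTGTT. The search covered both strands of the 250 bases before each RefSeq transcript start (GRCm38.p6). Of the 60 members, 38 had a RefSeq promoter entry, and 6 of them held a match at one start or more (15.8%: Dkk1, Fzd7, Lef1, Tcf7l2, Wnt11 and Wnt5b), beside 16.8% of all 27025 genes in the table. Dkk1, Lef1 and Wnt11 are shown because, of the 6, these 3 were called lower in CD49f-high than in both other gates. Of the others, Fzd7 was called higher in CD49f-high than in both other gates, and Wnt5b and Tcf7l2 were called in no comparison. The share of members with a match was not above that of all genes. Whether Lef or Tcf factors act on any of these genes was not tested. The capitals mark the match, read 5′ to 3′ on the strand of the gene. Dkk1 (chr19:30549497-30549746, minus strand) holds CTTTGAA and CTTTGTT, which start 117 and 98 bases before the transcript start. Lef1 (chr3:131156044-131156293, plus strand) holds CTTTGTA on the opposite strand, 147 bases before the start. This Lef1 start lies inside the gene, downstream of the start of its row. The Dkk1 start likewise lies inside its row (30545863 to 30549665, minus strand), and both Dkk1 matches lie within the row. Wnt11 (chr7:98834862-98835111, plus strand) holds 1 match, CTTTGAT on the opposite strand, 51 bases before the start. Matches on the opposite strand are printed as their reverse complement. A match is a description of letters and not a bound site.
Dkk1: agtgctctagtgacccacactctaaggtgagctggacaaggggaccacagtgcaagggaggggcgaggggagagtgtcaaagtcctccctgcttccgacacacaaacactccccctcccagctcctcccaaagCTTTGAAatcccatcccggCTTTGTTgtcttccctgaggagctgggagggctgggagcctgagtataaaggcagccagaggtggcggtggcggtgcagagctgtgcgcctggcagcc
Lef1: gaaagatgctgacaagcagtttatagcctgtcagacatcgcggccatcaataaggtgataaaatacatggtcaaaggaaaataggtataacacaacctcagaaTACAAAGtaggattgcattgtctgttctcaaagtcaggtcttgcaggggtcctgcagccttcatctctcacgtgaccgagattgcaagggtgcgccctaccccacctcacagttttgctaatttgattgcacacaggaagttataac
Wnt11: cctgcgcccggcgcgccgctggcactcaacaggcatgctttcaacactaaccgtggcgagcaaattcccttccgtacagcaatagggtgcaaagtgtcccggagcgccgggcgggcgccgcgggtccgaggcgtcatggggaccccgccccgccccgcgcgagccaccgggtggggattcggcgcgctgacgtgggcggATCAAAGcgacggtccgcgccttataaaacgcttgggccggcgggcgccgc

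Genes of the pathway outside these families were described from 4 lists of 69 symbols, 66 of them tested. From negative to low 11 were called higher and 7 lower (12.8% and 2.62% of all rows). From negative to high it was 7 and 16 (13.9% and 8.27%), and from low to high 5 and 18 (5.93% and 10.5%). Their median log2 change was 0.09, -0.02 and -0.12 in the 3 comparisons, beside 0.21, 0.07 and -0.15 for all rows. After median-of-ratios scaling 10 were called lower from low to high. From negative to low, 4 were called lower on leaving out CD49f-low replicate 2 or CD49f-neg replicate 2, and 3 on leaving out CD49f-low replicate 3. From low to high 3 were called higher without CD49f-low replicate 2 or 3.

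In the secretion and extracellular list (16 tested) 5 were higher and 5 lower from negative to low (12.8% and 2.62% of all rows). From negative to high 1 was higher and 8 lower (13.9% and 8.27%), and from low to high 1 and 7 (5.93% and 10.5%). Wls, the carrier of Wnt proteins to the cell surface, was at 31.6, 25.4 and 30.4 FPKM in the 3 CD49f-neg libraries, 29.9, 15.9 and 20.8 in CD49f-low and 8.63, 7.72 and 7.72 in CD49f-high. It fell by 1.32 log2 units from low to high (SE 0.20, adjusted p = 0.00167) and by 1.73 from negative to high (SE 0.20, adjusted p = 0.000217). Frzb, an Sfrp-like inhibitor that the family pattern left out, was at 1.29, 2.79 and 2.65 FPKM in the 3 CD49f-neg libraries, 5.67, 6.98 and 8.44 in CD49f-low and 0.756, 0.859 and 0.674 in CD49f-high. It rose by 1.33 from negative to low (SE 0.20, adjusted p = 0.00245) and fell by 2.17 from low to high (SE 0.20, adjusted p = 0.000134), and its fall of 0.84 from negative to high (SE 0.20, adjusted p = 0.0154) ended on leaving out CD49f-neg replicate 2 (adjusted p = 0.0607) or CD49f-neg replicate 3 (0.0642).

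Draxin, an antagonist of Wnt signalling and axon guidance, rose by 2.84 log2 units from negative to low (SE 0.27, adjusted p = 0.000146) and fell by 2.26 from low to high (SE 0.27, adjusted p = 0.000482). Its mean was 0.0562, 6.84 and 0.621 FPKM in CD49f-neg, CD49f-low and CD49f-high, so the log2(FPKM + 1) scale shrinks these differences. Shisa2, which retains Frizzled inside the cell, rose by 1.37 (SE 0.15, adjusted p = 0.000324) and fell by 1.34 from low to high (SE 0.15, adjusted p = 0.000332). Sost, an Lrp5 and Lrp6 blocker, rose by 1.42 from negative to low (SE 0.18, adjusted p = 0.000731) and fell by 1.62 from low to high (SE 0.18, adjusted p = 0.000291). The glypican Gpc3 fell by 1.15 from negative to low (SE 0.13, adjusted p = 0.000465) and by 1.66 from negative to high (SE 0.13, adjusted p = 2.71e-05). Its fall of 0.51 from low to high (SE 0.13, adjusted p = 0.0291) ended in 9 of 18 alternatives (adjusted p = 0.0536 to 0.209), which were the fit on 6 libraries, median-of-ratios scaling, no filter, quantile scaling, dropping replicate 1 of every gate and leaving out CD49f-high replicate 1 and CD49f-low replicate 1, 2 or 3. Reck, a membrane protein needed for Wnt7 signals, fell by 1.15 from negative to low (SE 0.14, adjusted p = 0.000729) and by 1.61 from negative to high (SE 0.14, adjusted p = 5.31e-05). Its difference of -0.46 from low to high (adjusted p = 0.0604) passed under the replicate block (adjusted p = 0.0384) or on leaving out CD49f-high replicate 3 (0.0396).

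In the intracellular list (26 tested) 2 were called from negative to low, both higher (12.8% of all rows). From negative to high 3 were higher and 1 lower (13.9% and 8.27%), and from low to high 1 and 4 (5.93% and 10.5%). The row of Ctnnb1, β-catenin, which also carries another symbol and is uncertain for that reason, was at 47.5, 60.8 and 57.7 FPKM in the 3 CD49f-neg libraries, 89.9, 85.8 and 92.98 in CD49f-low and 61.1, 59.9 and 69.3 in CD49f-high. It rose by 0.69 log2 units from negative to low (SE 0.12, adjusted p = 0.00513). The call was lost when scaled by median-of-ratios (adjusted p = 0.0763). It fell by 0.49 from low to high (SE 0.12, adjusted p = 0.0218). This call ended in 8 of 18 alternatives (adjusted p = 0.0516 to 0.152), which were median-of-ratios scaling, no filter, quantile scaling, dropping replicate 1 of every gate and leaving out CD49f-high replicate 2 and CD49f-low replicate 1, 2 or 3. Dact1, a Dishevelled-binding protein, rose by 1.10 from negative to high (SE 0.20, adjusted p = 0.00389) and by 1.19 from low to high (SE 0.20, adjusted p = 0.00364). Tle4, a corepressor of Tcf factors, rose by 0.67 from negative to low (SE 0.13, adjusted p = 0.00717). It was no longer called when scaled by median-of-ratios (adjusted p = 0.0551). It fell by 0.55 from low to high (SE 0.13, adjusted p = 0.0154). The call was lost when scaled by median-of-ratios (adjusted p = 0.0626), on dropping replicate 1 of every gate (0.0607) or on leaving out CD49f-low replicate 1 (0.0532). Pygo1, a β-catenin cofactor, fell by 0.50 from negative to high (SE 0.12, adjusted p = 0.0175) and by 0.57 from low to high (SE 0.12, adjusted p = 0.0131). The first ended when only the 6 libraries in question were fitted (adjusted p = 0.0522), on leaving out CD49f-high replicate 1 (0.0541), CD49f-high replicate 3 (0.0537), CD49f-neg replicate 2 (0.0516) or CD49f-neg replicate 3 (0.0766), and the second when scaled by median-of-ratios (adjusted p = 0.0613), when quantile-normalized (0.0525) or on leaving out CD49f-low replicate 3 (0.0604). Tnks, a tankyrase that degrades Axin, rose by 0.47 from negative to high (SE 0.13, adjusted p = 0.0306). This call ended in 10 of 18 alternatives (adjusted p = 0.0509 to 0.129), which were the fit on 6 libraries, median-of-ratios scaling, no filter, quantile scaling, dropping replicate 1 of every gate and leaving out CD49f-high replicate 1, 2 or 3 and CD49f-neg replicate 2 or 3.

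Of 14 other receptors and planar polarity genes tested, 1 was higher and 1 lower from negative to low (12.8% and 2.62% of all rows). From negative to high 2 were higher and 3 lower (13.9% and 8.27%), and from low to high 2 and 2 (5.93% and 10.5%). Ptk7, a polarity co-receptor, fell by 1.83 log2 units from low to high (SE 0.15, adjusted p = 7.24e-05) and by 1.98 from negative to high (SE 0.15, adjusted p = 2.20e-05). The Wnt5a receptor Ror1 fell by 0.77 from negative to low (SE 0.12, adjusted p = 0.00262) and rose by 0.56 from low to high (SE 0.12, adjusted p = 0.0118). The second call ended on leaving out CD49f-low replicate 2 (adjusted p = 0.0505) or CD49f-low replicate 3 (0.0538). Daam2, a formin that binds Dishevelled, rose by 1.44 from negative to low (SE 0.14, adjusted p = 0.000203) and by 1.17 from negative to high (SE 0.14, adjusted p = 0.000373). Celsr1, a polarity cadherin, rose by 1.83 from negative to high (SE 0.24, adjusted p = 0.000586) and by 1.48 from low to high (SE 0.24, adjusted p = 0.00291). Its mean was 0.181, 0.502 and 3.41 FPKM in CD49f-neg, CD49f-low and CD49f-high. The added 1 shrinks differences between such low values.

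In the list of other known targets (10 tested) 3 were higher and 1 lower from negative to low (12.8% and 2.62% of all rows). From negative to high 1 was higher and 4 lower (13.9% and 8.27%), and from low to high 1 and 5 (5.93% and 10.5%). Bmp4, a signal of the papilla that the papilla list holds too, rose by 1.34 log2 units from negative to low (SE 0.21, adjusted p = 0.00265) and fell by 2.67 from low to high (SE 0.21, adjusted p = 5.70e-05). From negative to high it fell by 1.34 (SE 0.21, adjusted p = 0.00145). The receptor Tnfrsf19 fell by 1.96 from low to high (SE 0.18, adjusted p = 0.000111) and by 1.32 from negative to high (SE 0.18, adjusted p = 0.000632). Its rise of 0.64 from negative to low (SE 0.18, adjusted p = 0.0398) ended in 10 of 18 alternatives (adjusted p = 0.0553 to 0.286), which were the fit on 6 libraries, median-of-ratios scaling, no filter, quantile scaling, dropping replicate 1 of every gate and leaving out CD49f-high replicate 2, CD49f-low replicate 1 or 3 and CD49f-neg replicate 1 or 2. Twist1, a mesenchymal transcription factor, fell by 1.16 from low to high (SE 0.12, adjusted p = 0.000194) and by 1.59 from negative to high (SE 0.12, adjusted p = 1.67e-05). Its fall of 0.43 from negative to low (SE 0.12, adjusted p = 0.0374) ended with no filter (adjusted p = 0.102), on leaving out CD49f-low replicate 1 (0.0535), CD49f-low replicate 2 (0.133), CD49f-low replicate 3 (0.0897), CD49f-neg replicate 2 (0.0826) or CD49f-neg replicate 3 (0.125). Jag1, a Notch ligand, rose by 1.93 from negative to low (SE 0.17, adjusted p = 1.00e-04) and by 2.76 from negative to high (SE 0.17, adjusted p = 7.95e-06). From low to high its difference was 0.82 (SE 0.17, adjusted p = 0.0104).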

How the data were processed

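RNA-seq levels of 9 libraries were read from 1 table of FPKM that the authors deposited. The submitters' processing notes name FastQC, TopHat2, StringTie and GRCm38, and the labels' protocols name Trizol and the NEBNext Ultra RNA kit. Values were log2(FPKM + 1) transformed, rows with at least 1 FPKM in at least 3 libraries were kept (20523), and limma 3.58.1 in R 4.3.3 fitted gate means with a mean-variance trend and Benjamini-Hochberg adjustment over all rows (6 residual degrees of freedom). Absolute depth was not determined. Low FPKM of single-exon genes were whole multiples of a step within 0.1 of a step in 94.8% to 97.7% of cases, and gave only relative depth. Same-numbered libraries deviated together (correlation 0.252 to 0.520 over 9 pairs, against -0.453 to 0.118 over 18 pairs of different number), so the numbers were taken to pair the samples from the data and the blocked fit is given where it changes a call. On simulated data for CD49f-low against CD49f-neg (20523 rows, 200 changed), 66% of 2-fold and 98% of 4-fold changes were recovered, with 2.38% of calls false. Changes were added only to rows above a mean level that some members, such as Wnt16 and Sfrp5, did not reach. Far fewer rows were changed than were called in the data. Noise was drawn independently for each library, without the shared deviation of same-numbered ones. These rates therefore do not describe low members or paired libraries. The members and lists were chosen with earlier results of these data known. Per-library values are given for members called in at least 1 comparison or averaging at least 5 FPKM in a gate, and pathway genes are those with the 3 smallest adjusted p per list and comparison, with Ctnnb1, Wls and Frzb. Alternatives were a pseudocount of 0.1, no filter or at least 5 FPKM, median-of-ratios and quantile scaling, no trend, the replicate block, the 6 libraries compared and each library left out. Leaving out replicate 1 of every gate was chosen after seeing the data. Promoters are from RefSeq, GRCm38.p6.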

Additional observations from a re-analysis of the deposited data

How the results depend on the processing

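Of 63 calls of single members, 46 held in every alternative and 17 were lost in at least 1, and of 45 calls of pathway genes 33 held. The causes were not tested. The replicate block changed no other call of a named gene than those given. Members lower in CD49f-low than in CD49f-neg numbered 4 in the fit on the 6 libraries compared, with the replicate block, and without replicate 1 of every gate. Members called higher from negative to high numbered 11 with the block and 11 without replicate 1 of every gate, and members higher in CD49f-high than in CD49f-low 3 with no filter or the stricter one. Members above both other gates in CD49f-high numbered 5 without replicate 1 of every gate. Pathway genes lower from low to high were 10 after median-of-ratios scaling. Leaving out 1 library gave 1254 to 3147 (CD49f-low against CD49f-neg, all rows called higher), 2 to 4 (CD49f-low against CD49f-neg, Wnt members called lower), 3 to 7 (CD49f-low against CD49f-neg, other Wnt pathway genes called lower), 339 to 617 (CD49f-low against CD49f-neg, all rows called lower), 6 to 14 (CD49f-high against CD49f-neg, Wnt members called higher), 1 to 7 (CD49f-high against CD49f-low, Wnt members called higher), 3 to 5 (CD49f-high against CD49f-low, other Wnt pathway genes called higher), 1307 to 2274 (CD49f-high against CD49f-low, all rows called lower) and 1 to 7 (Wnt members called higher in CD49f-high than in both other gates). Over all rows, called higher from negative to low were 1117 (median-of-ratios), 1040 (quantile), 4916 (replicate block) and 1105 (stricter filter), and called lower 1093, 1004, 890 and 253. With the stricter filter, 1175 were higher and 736 lower from negative to high, and 519 higher and 804 lower from low to high. Lower from low to high were also 1331 (median-of-ratios), 1431 (quantile) and 3652 (replicate block). The F test called 8995 with the block and 2340 with the stricter filter, which tests fewer rows. Genes below the stricter filter have no value under it. Low FPKM and 3 libraries a gate limit what can be called.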
